A study of Mus musculus with 6 samples.

Results

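The Zfp genes are mouse genes named for zinc finger proteins, and 293 of them were measurable in macrophages kept with or without ADP. The set held every gene whose name on the array is Zfp followed by a number and whose probe was well above background on all 6 arrays, with the brightest such probe taken for each gene. The array carried 543 Zfp probes for 358 gene names, so 65 names were left out. Of these, 43 were above background on no array. The 293 genes were among 19583 features tested in all. The set was chosen by detection on all arrays and selected on the log2 signal of ADP against control cells, in which many members read lower. The difference between ADP and control cells is therefore given as a description of these samples and supports nothing.

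Bone marrow-derived macrophages of C57BL/6 mice were grown for 7 days with medium conditioned by L929 cells, a fibroblast line that supplies M-CSF. In the ADP group, 3 samples were exposed to 100 µM ADP for 6 h, and the control group held 3 samples taken after a 6 h control treatment. No genotype other than the strain, and no age or sex of the mice, is given in the labels. Per the labels, the experiments were independent and each used another donor. RNA from whole cultures was hybridised to one-colour Agilent arrays, 1 per sample, so fewer cells of a type and less RNA per cell cannot be told apart.

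The fold of a zinc finger protein is held together by zinc ions. In the largest class, each finger carries cysteine and histidine residues, several fingers lie in tandem, and the array of fingers reads a DNA sequence. Many of these proteins also carry a KRAB domain, which recruits Trim28 and Setdb1 to silence retroelements and imprinted loci. A smaller CCCH class, that of Zfp36, binds AU-rich elements of mRNAs and recruits the deadenylase complex, which limits cytokine output in macrophages. Other proteins with a Zfp symbol act in ribosome assembly or in ubiquitin signalling, so the name is a label of a fold and not of a pathway. RefSeq gave the same symbol for 284 of the 293 genes. The other 9 carry another symbol there, such as Zbtb14 for Zfp161 and Zpr1 for Zfp259.

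The relatedness of these genes could be read from the probes themselves, which are 60 bases long. Neighbouring fingers are commonly joined by a conserved linker of 5 residues, and 14 of the 543 Zfp probes held codons for it, against 15 of 55138 other probes. The probes of 5 members that do so are shown 5′ to 3′ with the linker codons in capitals, since such a stretch recurs between family members. Positions are those of the files, on build mm9.
Zfp72, chr13:74509332-74509391, minus strand: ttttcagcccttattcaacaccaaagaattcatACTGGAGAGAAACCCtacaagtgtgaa
Zfp14, chr7:30823139-30823198, minus strand: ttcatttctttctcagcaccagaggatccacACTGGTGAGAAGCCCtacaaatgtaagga
Zfp442, chr2:150234210-150234269, minus strand: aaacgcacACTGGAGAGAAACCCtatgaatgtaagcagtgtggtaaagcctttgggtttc
Zfp936, chr7:50445732-50445791, plus strand: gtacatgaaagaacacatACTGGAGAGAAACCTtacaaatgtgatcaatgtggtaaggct
Zfp947, chr17:22282838-22282897, minus strand: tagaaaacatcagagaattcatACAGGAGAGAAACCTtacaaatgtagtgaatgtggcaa

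A run of at least 20 bases was shared with the probe of another gene name by 22 of the 293 member probes, and in 8 cases the other gene was itself a Zfp gene. The probe of Zfp936 shared such runs with 13 other gene names and that of Zfp947 with 11. The probe of Zfp408 shared runs of up to 32 bases with 10 other names. The probe of Zfp663 shared runs with 23. No Zfp gene was among the names matched by Zfp408 or by Zfp663. The levels of these genes are therefore uncertain. The member shared most completely was Zfp955b, whose whole 60 bases lie in another probe.

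The level of a gene is given as log2 signal relative to the 75th percentile of its array, so that 0 is that percentile and -1 is 2-fold below it. Member levels ran from -4.18 to 8.65 with a median of -0.09, against a median of 0.82 for the 18375 other features above background on all 6 arrays. The median difference between ADP and control cells was -0.04 over the members and 0.01 over those other features. Of the members, 171 (58.4%) read lower with ADP and 122 read higher, where 49.2% of all features tested read lower. The direction of the median depended on the scaling: without any scaling between arrays it was 0.04, with 127 of the members (43.3%) lower, against 35.5% of the other features. The members' median lay 0.05 below that of the other features with the 75th percentile, with the median or with no scaling, and 0.03 below it with quantile normalization.

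The differences were small for most members. The quartiles of the members' differences were -0.16 and 0.12, and 1 member differed 2-fold or more. The 3 ADP values lay wholly below the 3 control values for 41 members (14.0%), against 9.74% of all features tested. They lay wholly above for 19 members (6.48%), against 9.66%. At an unadjusted p under 0.05 in limma there were 18 members lower, where 6.19% of all features were, and 9 members higher, where 6.55% were. With the slide as a block these counts were 37 and 18, where 2656 and 2105 of the 19583 features were lower and higher. With or without the block, each count was a smaller share of the members than of all features. Without scaling between arrays the members' counts were 5 and 10, with 14 members wholly lower and 20 wholly higher. Without ADP replicate 1 the members' counts were 30 and 14, and without ADP replicate 3 the higher count was 5. For the settings without scaling or without an array, counts over all features are not given, so no comparison is drawn. No feature on the array passed an adjusted p of 0.05 (0 of 19583, or 0%; 1213 lower and 1282 higher at an unadjusted p under 0.05), and the smallest adjusted p was 0.256.

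**Figure D1:**
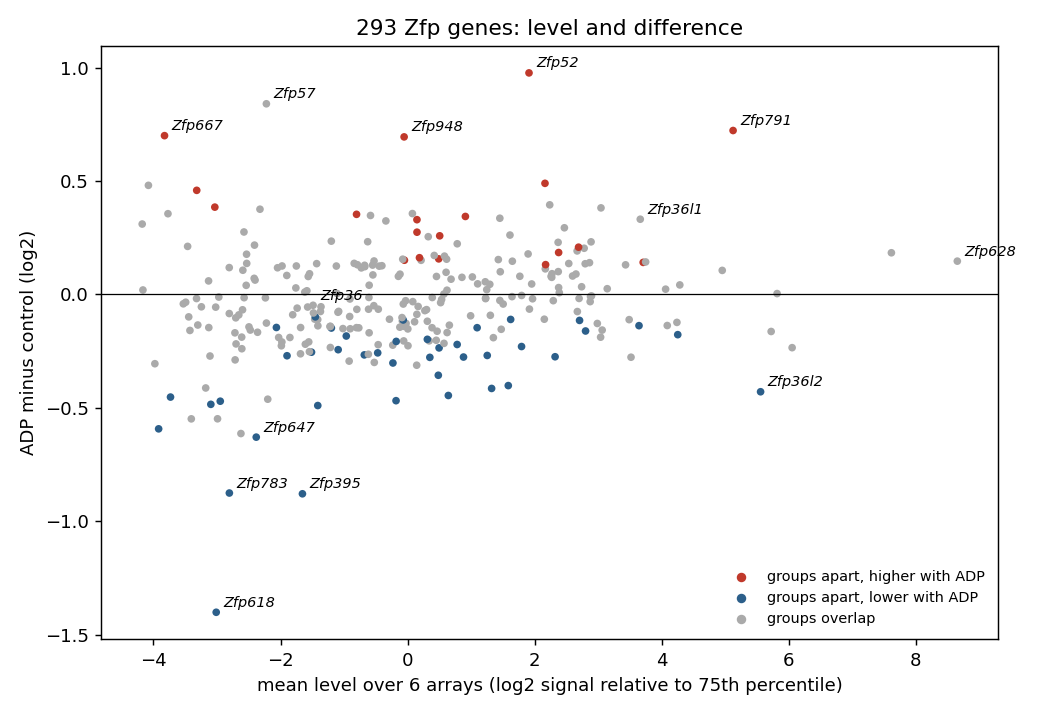
Each point is 1 of the 293 Zfp genes, with its mean level over 6 arrays (log2 signal relative to the 75th percentile) across and its ADP minus control difference (log2) up. Colour marks the 41 genes whose ADP values lie wholly below the control values and the 19 whose values lie wholly above; the widest differences are Zfp618 at -1.40 and Zfp52 at 0.98.

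The share of lower readings varied with signal level. When all features above background on all 6 arrays were ordered by level and divided into 4 equal parts, 66.7% of the 69 members in the dimmest part read lower with ADP, against 51.6% of the other features there. In the next part, 64.1% of 131 members read lower, against 53.3%. In the third part, 43.8% of 73 members read lower, against 53.4% of the others, so there the members' share was the smaller one. In the brightest part, 45.0% of 20 members read lower, against 38.1%. With the slide as a block, the shares in the 4 parts, from dim to bright, were 63.8%, 61.8%, 47.9% and 60.0% of the members, against 49.3%, 51.2%, 56.6% and 50.3% of the others. Weighted to the levels of the members, 51.9% of other features read lower. With normexp background correction, 55.6% of the members read lower, against 49.9% of others so weighted.

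**Figure D2:**
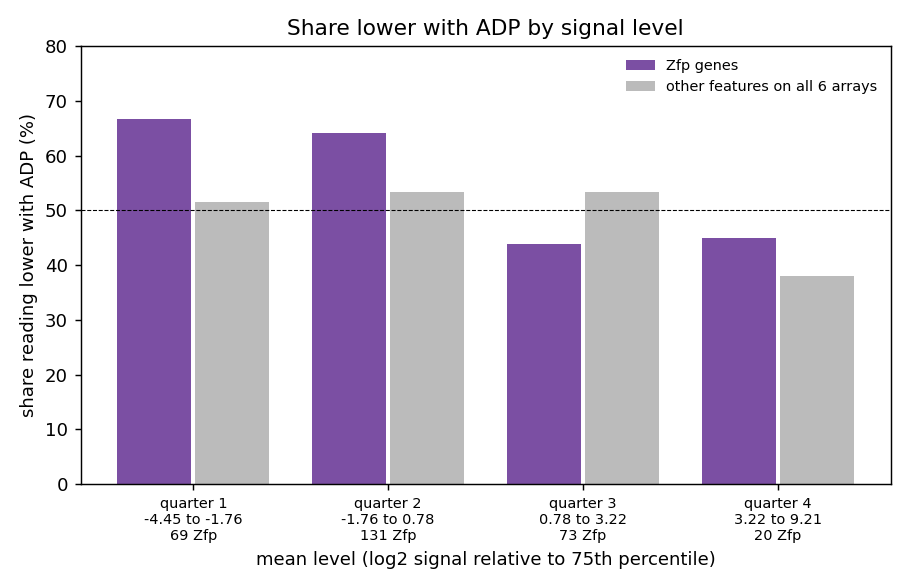
Bars give the share (%) of features that read lower in ADP than in control cells, for Zfp genes and for the other features above background on all 6 arrays, in 4 parts of equal size by mean level; the dashed line marks 50%. The Zfp share is 66.7% and 64.1% in the 2 dimmer parts and 43.8% and 45.0% in the 2 brighter ones.

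The arrays lay on 2 slides. Slide 1 held ADP 1 with controls 1 and 2, and slide 2 held ADP 2 and 3 with control 3. Within slide 1, 55.3% of the members read lower with ADP (median -0.04), and within slide 2, 62.5% did (median -0.07). The other features read lower in 48.3% within slide 1 and 54.8% within slide 2. In both slides alike, 115 members (39.2%) read lower and 63 (21.5%) read higher, where 32.5% and 29.4% of the other features did so. The remaining 115 members had opposite signs on the 2 slides. With the slide as a block, 172 members read lower, the median stayed at -0.04, and the smallest adjusted p over all features was 0.0734.

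When the slide block was fitted with trended and robust variances, 1940 of the 19583 features passed an adjusted p of 0.05. Of the members, 14 were called lower, where 5.39% of all features were, and 4 were called higher, where 4.51% were. Both are smaller shares of the members than of all features. The 14 were Zfp618, Zfp783, Zfp395, Zfp647, Zfp36l2, Zfp704, Zfp275, Zfp61, Zfp593, Zfp414, Zfp28, Zfp467, Zfp90 and Zfp524. Of these, Zfp524 stood at -0.28 with the slide block and -0.02 without it. Zfp467 stood at -0.27 on its brightest probe, while its 3 other probes stood at 0.17, -0.11 and 0.26. The probe used for Zfp28 was placed on chromosome 5, while its promoter lies on chromosome 7. The 4 were Zfp352, Zfp36l1, Zfp523 and Zfp791.

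**Figure D3:**
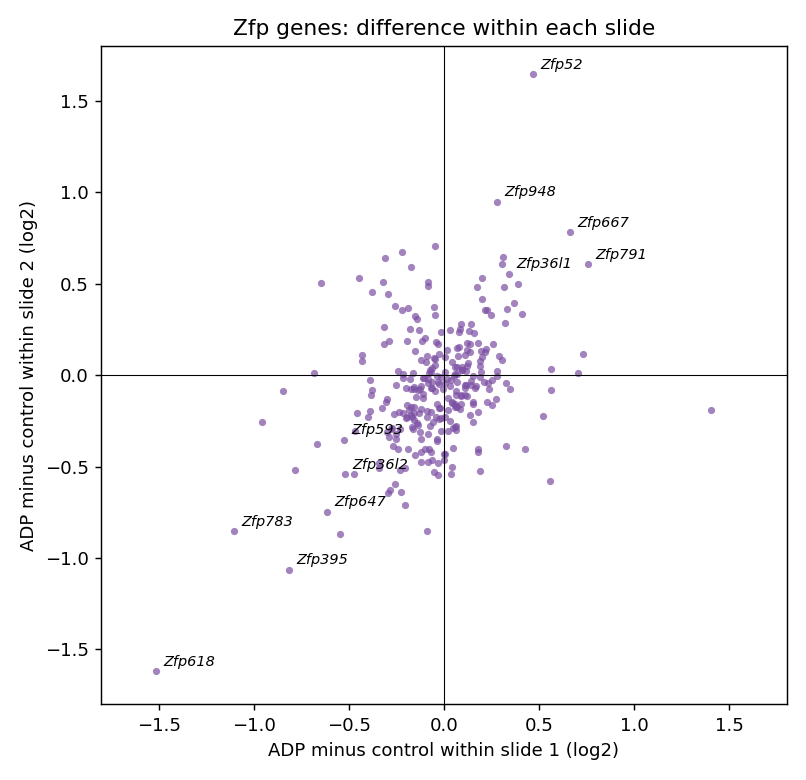
Each point is a Zfp gene, with its ADP minus control difference (log2) within slide 1 across and within slide 2 up. Zfp618, Zfp783 and Zfp395 lie far into the lower left corner and Zfp791 and Zfp667 into the upper right, while Zfp52 stands at 0.47 within slide 1 and 1.64 within slide 2.

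Among members whose groups did not overlap, the widest difference was that of Zfp618, whose human counterpart has been described as a binding partner of UHRF2. Zfp618 read -4.01, -2.96 and -4.17 in ADP cells, against -2.10, -2.89 and -1.95 in control cells, a difference of -1.40 ± 0.39 (SE, n = 3 each), or 2.64-fold. ADP 2 and control 2 nearly met, while the other samples stood well apart. The signal is dim, and under normexp correction the difference was -0.70. Zfp395, whose human counterpart is known as a DNA-binding factor of the Huntington's disease gene promoter, read -2.13, -1.98 and -2.18 in ADP cells, against -1.32, -1.32 and -1.01 in control cells. Its difference was -0.88 ± 0.13, every ADP value lay below every control value, and the difference was -0.81 within slide 1 and -1.06 within slide 2. Zfp783, which carries a non-coding RNA accession, read -3.53, -3.07 and -3.12 in ADP cells, against -2.33, -2.53 and -2.24 in control cells. The difference was -0.87 ± 0.16, with the groups clear of each other, and -0.44 under normexp correction.

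Zfp647 read -2.76, -2.60 and -2.73 in ADP cells, against -2.35, -1.93 and -1.92 in control cells, a difference of -0.63, or -0.37 under normexp correction. Its ADP samples lay close together and all were below the lowest control. Zfp704 was the brightest of the 10 members with the widest lower differences, at -0.47, -0.40 and -0.38 in ADP cells and 0.05, -0.04 and 0.15 in control cells. That difference of -0.47 ± 0.10 was close to equal on both slides, at -0.47 and -0.54, and under normexp correction it was -0.44. The other 5 were Zfp708, Zfp810, Zfp945, Zfp239 and Zfp324, with differences between -0.59 and -0.45. Under normexp correction Zfp708 and Zfp324 stood at -0.18 each, Zfp239 at -0.22, Zfp945 at -0.26 and Zfp810 at -0.36.

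Among members higher with ADP, Zfp52 stood first. Zfp52 read 2.16, 2.43 and 2.61 in ADP cells, against 1.44, 1.96 and 0.87 in control cells, a difference of 0.98 ± 0.28, or 1.97-fold. The control samples were widely spread and control 3 was lowest, and the difference was 0.47 within slide 1 and 1.64 within slide 2. Its neighbour on chromosome 17, Zfp948, read -0.09, 0.39 and 0.58 in ADP cells, against -0.55, -0.19 and -0.47 in control cells. The difference of Zfp948 was 0.69 ± 0.20, at 0.28 within slide 1 and 0.95 within slide 2, and ADP 1 lay only just above the highest control.

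Zfp791 was the brightest of the 10 members with the widest higher differences. It read 5.45, 5.29 and 5.72 in ADP cells, against 4.56, 4.83 and 4.90 in control cells, a difference of 0.72 ± 0.16, with values of 0.75 and 0.61 within the slides. The groups were clear of each other and the difference was 0.72 under normexp correction as well. Zfp667 lay near the dim end, at -3.47, -3.43 and -3.52 in ADP cells and -4.06, -4.21 and -4.26 in control cells. Its replicates were tight and its difference was 0.70 ± 0.10. Under normexp correction, whose offset shrinks differences of such dim signals, it was 0.23. Zfp523, a close relative of Zfp143 known in humans as ZNF76, read 2.27, 2.35 and 2.60 in ADP cells, against 1.90, 2.03 and 1.83 in control cells, a difference of 0.49. A dimmer second probe of Zfp523 stood at -0.05. The other 5 ran from 0.46 to 0.33, and they included Zfp516, known for a role in brown fat, and Zfp451, a SUMO ligase.

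**Figure D4:**
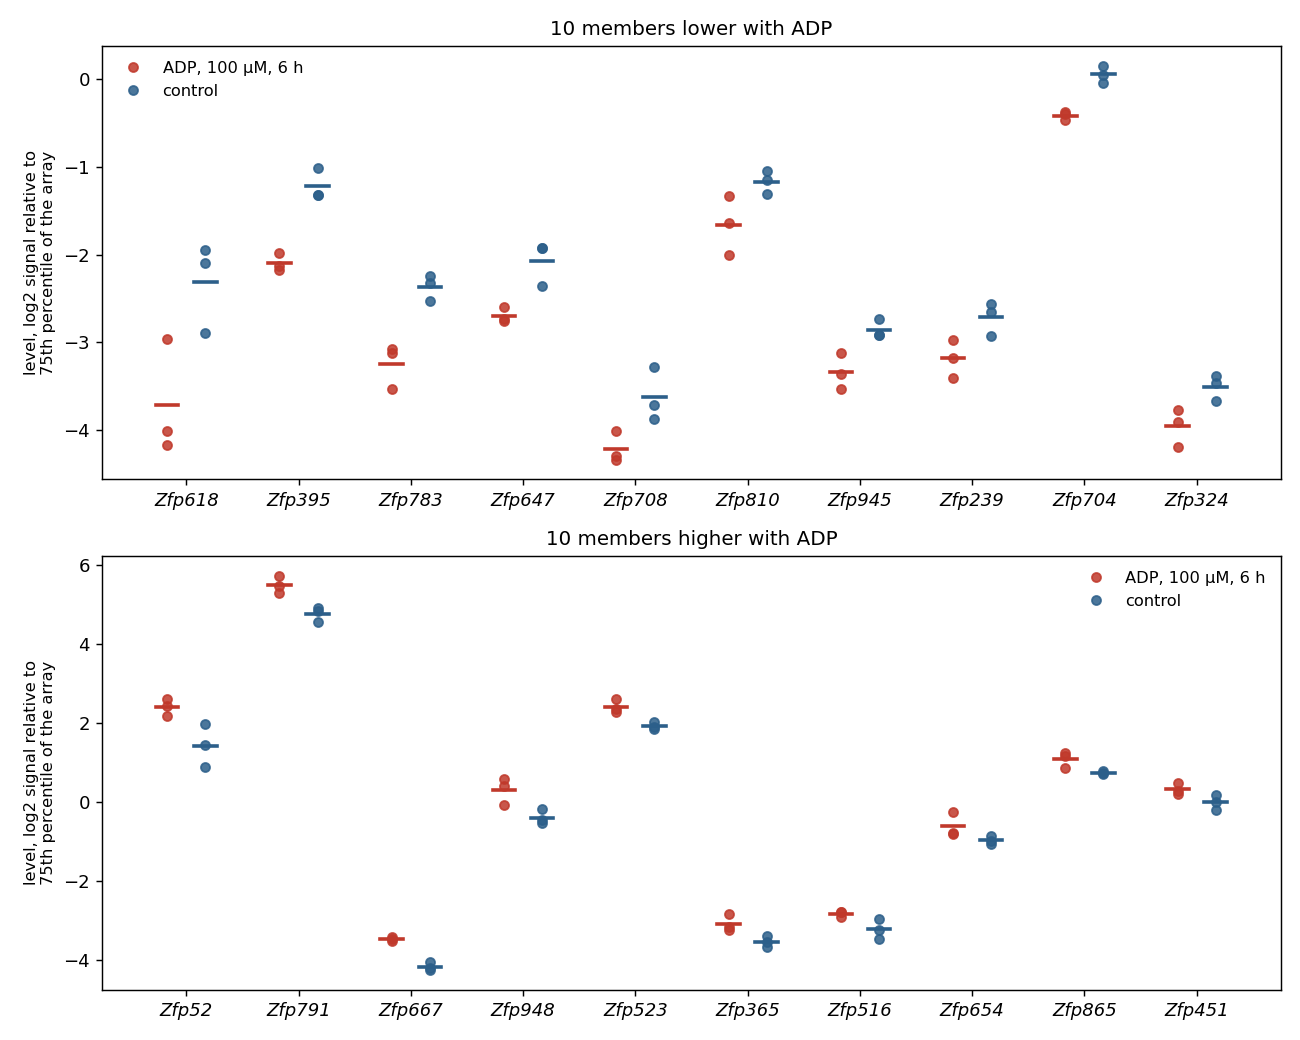
Levels (log2 signal relative to the array's 75th percentile) of the 10 members with the widest lower and the 10 with the widest higher difference among those whose groups do not overlap; points are the 3 ADP and the 3 control samples of each gene and bars their means. Zfp704 and Zfp791 are the brightest of their panels, and Zfp618 has the widest spread within a group.

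The 3 CCCH genes that act on mRNA decay differed among themselves. Zfp36, which encodes tristetraprolin, read -1.46, -1.52 and -1.55 in ADP cells, against -1.44, -1.57 and -1.38 in control cells, and its groups overlapped (-0.05 ± 0.10). Zfp36l2 was among the brighter members, at 5.15, 5.51 and 5.37 in ADP cells and 5.69, 5.64 and 5.98 in control cells, a difference of -0.43 ± 0.15. All ADP values were below all control values, and the difference was -0.52 within slide 1 and -0.54 within slide 2. Zfp36l1 read 3.99, 3.64 and 3.85 in ADP cells, against 3.61, 3.69 and 3.19 in control cells, a difference of 0.33 ± 0.17 with ADP 2 lying between controls. Within the slides it was 0.34 and 0.55. Of the 2 paralogs, then, Zfp36l2 read lower and Zfp36l1 higher with ADP on each slide.

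The factors that work beside these proteins in mRNA decay went both ways. Of 38 measured genes for deadenylation, decapping and AU-rich element binding, 17 read lower and 21 higher, with a median of 0.02. Hnrnpd, which binds AU-rich elements, stood at -0.25, and Btg1, which activates deadenylation, at 0.35. The widest differences in the list were 0.60 for Khsrp and 0.48 for Rc3h2, each with overlapping groups. With the slide as a block Khsrp stood at 0.18 and Rc3h2 at 0.43, the latter at 0.02 within slide 1 and 0.83 within slide 2. Of 18 measured transcripts known as targets of the Zfp36 family, 11 read higher and 7 lower with ADP, with a median of 0.52. The ADP values lay wholly above the control values for 9 of the 18 and wholly below for 2, against 9.66% and 9.74% of all features tested. Zfp36 is itself on that list. The widest were the cytokine Il1b at 1.43 and the growth factor Vegfa at 1.39. Cxcl2, a neutrophil chemokine, read 0.60, 0.48 and 0.77 in ADP cells, against -0.29, -0.12 and -0.98 in control cells. Ccl4, another chemokine, read 4.10, 4.31 and 4.12 in ADP cells, against 4.67, 4.55 and 4.69 in control cells. Their differences were 1.08 for Cxcl2 and -0.46 for Ccl4.

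The 3 members with a role in ribosome assembly or translation had a median of -0.16, and 2 of them read lower on each slide. Zfp593, whose human counterpart acts in maturation of the large subunit, read 1.25, 1.54 and 1.36 in ADP cells, against 1.91, 1.65 and 1.80 in control cells. Its difference was -0.40 ± 0.13 without overlap. Zfp622, another large subunit factor and the fifth brightest member, stood at -0.16 ± 0.10. Zfp598, the ubiquitin ligase that senses collided ribosomes, stood at -0.01 ± 0.12 and at 0.07 and 0.04 within the slides. Both overlapped between the groups.

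Members with a role in immune signalling or in lymphocytes differed little. The group of 4 had 2 lower and 2 higher and a median of -0.02. Zfp91, a ubiquitin ligase of the alternative NF-kB pathway, stood at -0.10, and Zfp281 at -0.19. Zfp318, which controls IgD transcripts in B cells, stood at 0.06, and Zfp335, needed for T cell development, at 0.08. The ADP and control values overlapped for each of the 4.

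Of 5 members with a role in imprinting or retroelement silencing, 4 read higher and 1 lower, with a median of 0.15. Zfp708 was the lower one, and the most strongly different of the 5 on each slide, at -0.54 and -0.87. Zfp809, which silences murine leukaemia virus, read 0.27, 0.18 and 0.35 in ADP cells, against 0.06, 0.09 and 0.17 in control cells, a difference of 0.16 without overlap. Zfp445, which guards imprints, stood at 0.15, and Zfp568, which represses a placental Igf2 transcript, at 0.13. Zfp57 had a difference of 0.84 ± 0.93, and 0.01 with the slide as a block. Zfp445, Zfp568 and Zfp57 were of opposite sign on the 2 slides, and the median of the 5 was -0.09 within slide 1 and 0.10 within slide 2.

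Of 25 measured genes of the KRAB co-repressor and heterochromatin machinery, 15 read lower and 10 higher, with a median of -0.11. Trim28, the scaffold that KRAB domains bind, read 3.01, 3.18 and 3.22 in ADP cells, against 3.18, 3.10 and 3.67 in control cells (-0.18). Setdb1, the histone methyltransferase that it recruits, read 0.83, 0.74 and 0.93 in ADP cells, against 0.97, 0.89 and 1.11 in control cells (-0.15). Both overlapped between groups. Uhrf1, which guides maintenance methylation, stood at -0.63 and Ehmt1, an H3K9 methyltransferase, at 0.82, each without overlap. Ehmt1 had 2 probes above background on all 6 arrays, and over the 20 settings run its difference ranged from 0.35 to 0.91.

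Of 15 members listed for other known roles, Zfp42, the pluripotency marker Rex1, and Zfp521 were above background on no array. The other 13 had 7 lower and 6 higher, with a median of -0.02. Zfp395 apart, their differences ran from -0.14 for Zfp263 to 0.48 for Zfp423, an adipocyte lineage factor near the dim end. Zfp143, a factor bound at many promoters, stood at 0.02, and Zfp207, a spindle assembly protein, at -0.14. Zfp217 and Zfp703, known as oncogenes in human breast cancer, stood at 0.08 and 0.11, and Zfp106, an RNA-binding protein, at 0.14. Zfp110, Zfp148, Zfp161, Zfp384 and Zfp462 ran from -0.13 to 0.11.

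The 5 brightest members were Zfp628, Zfp408, Zfp710, Zfp658 and Zfp622. Zfp628 read 8.51, 8.87 and 8.80 in ADP cells, against 8.51, 8.49 and 8.74 in control cells, and its groups overlapped. These values come from its brightest probe, whose mean level was 8.65, while its other probe above background had a mean level of 1.83. The rank of Zfp628 and the highest member level therefore rest on the brighter probe alone. Zfp408 read 7.08, 8.08 and 7.96 in ADP cells, against 7.28, 7.46 and 7.83 in control cells, and its slide 2 samples were the higher ones in both groups. The Zfp408 probe shared runs of bases with probes of 10 other names, as given above, so its level and rank are uncertain. Zfp710 stood at -0.23 and Zfp658 at 0.00. At the dim edge of the set, Zfp560 read -3.79, -4.14 and -4.13 in ADP cells, against -4.23, -4.13 and -4.63 in control cells. The nearest gene left out, Zfp13, was above background on 4 arrays and read -4.47, -4.58 and -4.94 in ADP cells, against -5.29, -3.06 and -4.49 in control cells.

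Of the 293 members, 99 had more than 1 probe above background on all 6 arrays. All probes of a gene had the same sign for 65 of these genes. None of the 99 had 2 probes that went opposite ways with an unadjusted p under 0.05 on both sides (0 genes). Since only 18 members were lower and 9 higher at that threshold, such a pair would be rare in any case. Differences of the brightest and the next brightest probe correlated at 0.43.

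Families of zinc finger genes under other names can be set beside the members. Of 32 Zbtb genes, 18 read lower (median -0.04), and of 12 Zscan and Zkscan genes, 5 did (0.04). Of 15 Zc3h genes, which share the CCCH finger with Zfp36, 3 read lower (0.15). Of 11 Klf genes, 4 did (0.04). Under the slide block the medians of these 4 families were -0.04, -0.01, -0.01 and -0.04.

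Zfp genes are known to lie in clusters that grew by duplication, and the members did so here. By the annotated positions of their probes, chromosome 7 held 70 of them, chromosome 17 held 40 and chromosome 13 held 28. Such a position need not be that of the gene. The probes of Zfp28 and Zfp787 were placed on chromosomes 5 and 2, while their promoters lie on chromosome 7. With gaps of at most 500 kb between probes, 12 clusters of 5 or more held 113 members, and 112 members stood alone. At chr13:67139715-67927746, 13 of 16 members read lower, with a median of -0.10, at -0.12 within slide 1 and -0.16 within slide 2. At chr17:32910629-33768635, 10 of 12 members read lower, with a median of -0.15. At chr7:24892175-25087633, 7 of 8 did, with a median of -0.15. These 3 clusters were singled out after their values were seen, and 8 others had 8 of 13, 6 of 10, 5 of 8, 4 of 7, 4 of 6, 4 of 5, 3 of 5 and 2 of 5 members lower. Differences within the 3 were mostly small: in the chromosome 13 cluster they ran from -0.59 for Zfp708 to 0.04 for Zfp58, and 3 of its 16 members had ADP values wholly below the control values, where 9.74% of all features did.

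The longest cluster went neither way. At chr17:21165104-23693921, 8 of 18 members read lower and 10 higher, with a median of 0.08. It held the neighbours Zfp52 and Zfp948, which were among the widest higher differences, and Zfp945 at -0.48. Zfp51, close to Zfp52, read -0.01, -0.06 and 0.15 in ADP cells, against -0.13, -0.16 and -0.08 in control cells. Zfp53, next to it, overlapped between the groups at -0.14.

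Promoters were taken from RefSeq on build GRCm38.p6, as the 250 bases before the start of each gene, for the 248 members that matched. Their median GC content was 54.0%, against 52.0% for all 27025 promoters. The pair CG occurred a median of 10 times in member promoters and 6 times in all promoters. The cAMP response element and the ETS sequence below each contain a CG, and the part of this difference in their shares was not tested. The core sequence of ZNF143 sites, whose letters are the capitals in the matches below, stood in 8 member promoters (3.23%), against 0.285% of all promoters, counting both strands. The cAMP response element TGACGTCA stood in 11 (4.44%), against 1.62%. The ETS sequence CCGGAAGT stood in 22 (8.87%), against 2.93%, and CCAAT in 46.0%, against 34.5%. The AP-1 sequence TGAGTCA was in 3.23% of member promoters and 4.43% of all, and the E-box CACGTG in 7.26% and 6.05%. Clustered copies share ancestry, so the members are not independent in such a count.

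Matches to the ZNF143 core, without that of Zfp128, are printed to show how alike the flanks are among members, 3 of which (Zfp180, Zfp108 and Zfp93) lie in the chromosome 7 cluster above. Each is given with its GRCm38.p6 position, 5′ to 3′ on the strand of its gene, with the core or its reverse complement in capitals.
Zfp180, chr7:24081866-24081894, plus strand: agagttctgGGAATTGTAGTtccattgag
Zfp108, chr7:24254718-24254746, plus strand: ggcattctgGGAATTGTAGTtctggagcc
Zfp93, chr7:24270338-24270366, plus strand: ggaattctgGGAATTGTAGTtccaacgcc
Zfp1, chr8:111643409-111643437, plus strand: ggcattatgGGAATTGTAGTcctacacct
Zfp58, chr13:67500533-67500561, minus strand: agacttgtgGGAATTGTAGTctggccact
Zfp692, chr11:58307012-58307040, plus strand: ctaaggctaACTACAATTCCcggcaggct
Zfp933, chr4:147848431-147848459, minus strand: ttccaaagaACTACAATTCCcagcattcc

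Of the 11 members with a cAMP response element, 5 belong to the chromosome 13 cluster of 16. Their matches are printed with that of Zfp523, which had the highest difference of the 11, again on GRCm38.p6, and the element is in capitals.
Zfp457, chr13:67306450-67306479, minus strand: cccatcgcctgTGACGTCAtcagaaagagc
Zfp595, chr13:67332570-67332599, minus strand: ccctaccacgtTGACGTCAccaaaaggctg
Zfp953, chr13:67360606-67360635, minus strand: ccggatgcctgTGACGTCAtcagaaggctg
Zfp874a, chr13:67451625-67451645, minus strand: ctgcagcacggTGACGTCAca
Zfp874b, chr13:67484254-67484276, minus strand: ctgtagcacggTGACGTCAcaga
Zfp523, chr17:28177123-28177152, plus strand: acccggcgtcgTGACGTCAtcacgccctcc

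Members with these sequences did not stand on one side. Of the 8 with the ZNF143 core, 4 read lower with ADP, from -0.19 for Zfp1 to 0.38 for Zfp692. The level of Zfp692 differed by 0.97 between the slides, as described below. Of the 11 with a cAMP response element, 6 read lower, from -0.26 for Zfp874a to 0.49 for Zfp523. Of the 22 with the ETS sequence, 14 read lower, with a median of -0.09, where 148 of all 248 did with a median of -0.05.

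The slides themselves could be compared with a test, since the choice of the members used ADP against control and not slide 2 against slide 1. In limma, with treatment in the fit, 31 members were higher on slide 2 at an adjusted p under 0.05, where 13.5% of all features were, and 10 were lower, where 7.67% were. Together that made 14.0% of the members, against 21.2% of all features. Both counts shrank with any 1 array left out. The higher count was 26 without ADP 2 and between 10 and 18 without any other array, and the lower count was between 1 and 5. With no scaling between arrays, 129 members were higher and 3 lower. Counts over all features are not given for these alternative settings, so no comparison is drawn. Slide, donor and experiment cannot be told apart here, since the labels tie no donor to a slide.

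Zfp57, the KRAB protein that keeps imprinted methylation, differed most. It read -1.11 in ADP 2, -0.77 in ADP 3 and -1.04 in control 3, all on slide 2, against -3.53 in ADP 1, -3.53 in control 1 and -3.36 in control 2 on slide 1. The slides did not overlap, and slide 2 was higher by 2.50 ± 0.13, or 5.66-fold (limma, adjusted p = 0.00272). Zfp352, known for its expression in early embryos, went the other way. It read -0.18, -0.30 and -0.72 in ADP 2, ADP 3 and control 3 on slide 2, against 1.23, 0.94 and 0.89 in ADP 1 and controls 1 and 2 on slide 1 (-1.55 ± 0.09, limma, adjusted p = 0.00272). Its ADP values were higher than the control values on each slide, so the difference was -0.12 without the slide in the fit and 0.40 with it.

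Taken separately each way, the next members by p were Zfp692 and Zfp524, higher on slide 2 by 0.97 and 0.79, and Zfp282 and Zfp781, lower by 0.57 and 0.63. These were chosen after their values were seen. In Zfp692 the 3 slide 2 samples lay between 3.50 and 3.59, and the 3 slide 1 samples between 2.44 and 2.61, whichever treatment they had.

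**Figure D5:**
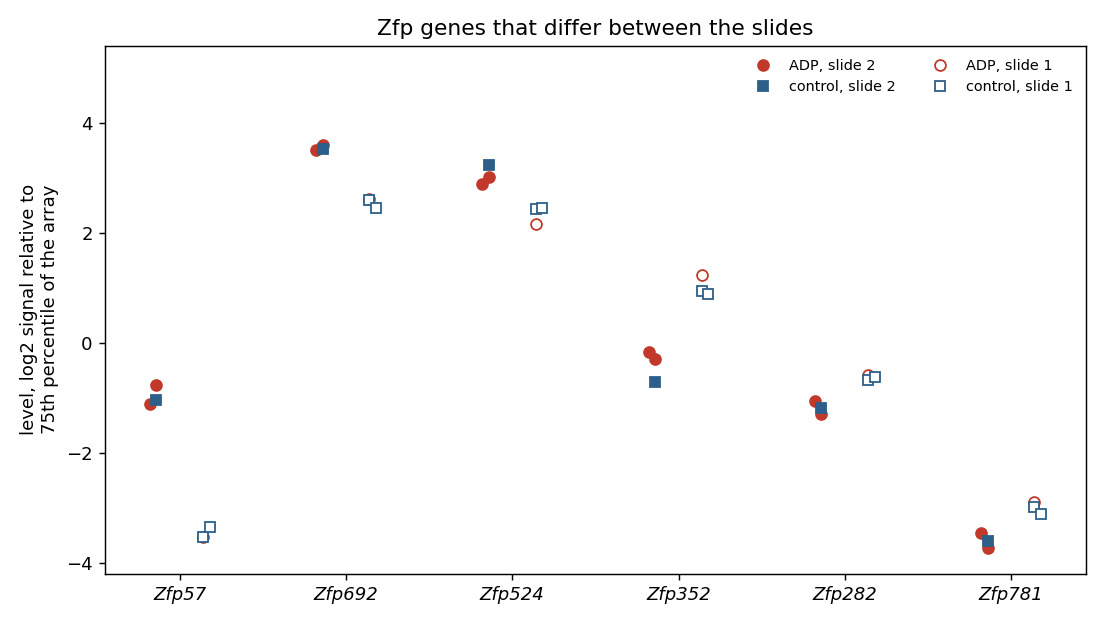
Levels (log2 signal relative to the array's 75th percentile) of 6 members that differ between the slides; filled points are slide 2 (ADP 2, ADP 3 and control 3) and open points slide 1 (ADP 1, control 1 and control 2). Zfp57, Zfp692 and Zfp524 are higher on slide 2 and Zfp352, Zfp282 and Zfp781 lower. Within a slide, the mean ADP and mean control levels of Zfp352 and Zfp524 stand 0.28 to 0.48 apart.

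Across the series, each array had 59305 spots outside the controls, of which 50.3% to 51.9% were well above background and 0 were saturated. Of 10 macrophage marker names, 8 were on the array and all 8 were above background on all 6 arrays, and their summed level was 1177 to 1605 times the 75th percentile in ADP cells and 974 to 1331 times in control cells. All 5 neutrophil markers on the array were above background too, with sums of 26.1 to 31.7 in ADP cells and 22.5 to 24.4 in control cells, so these did not overlap. B cell markers summed to 4.75 to 5.18 in ADP cells and 5.43 to 7.91 in control cells, which did not overlap either. Of these 4 markers only Cd79b was above background on all 6 arrays, and Ms4a1 was on none. Mast cell markers summed to 0.106 to 0.127 in ADP cells and 0.133 to 0.235 in control cells, with Cpa3, Fcer1a and Mcpt4 above background on none. The sums for T cell (2.73 to 4.49 in ADP cells, 2.59 to 4.09 in control cells), stromal (13.0 to 14.3 and 12.3 to 13.6), dendritic cell (0.097 to 0.103 and 0.082 to 0.127) and erythroid markers (0.075 to 0.110 and 0.053 to 0.119) overlapped. Above background on all 6 arrays were 2 of 5 T cell, 4 of 5 stromal, 1 of 4 dendritic cell and 0 of 4 erythroid markers. The part of these marker levels in the Zfp differences was not tested.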

How the data were processed

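Per the file headers, spots carry the deposited intensity that is the processed signal of Agilent Feature Extraction 10.7.1.1, background-subtracted within the array and not scaled between arrays. Flags for spots well above background and for outliers (other values) also came from the deposited files, and the deposited value table held the same intensity per probe. Here, control spots were left out, spots of a probe were averaged, and log2 signal was expressed against each array's 75th percentile. Probes were kept when well above background on all 3 arrays of a group, with 1 probe per gene name. Groups were compared with limma 3.58.1 (lmFit, eBayes) in R 4.3.3, two-sided, with Benjamini-Hochberg adjustment over 19583 features. The fit was tested on simulated data.

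The members, the gene lists and the named genes were chosen with earlier results of these data known. The rule for named genes took the 10 widest differences each way among members whose groups do not overlap, the 5 brightest, the role lists (mRNA decay, immune, ribosome, imprinting, other roles) and the edges of the detection rule. From the co-repressor, decay and target lists it took the gene with the smallest p each way. Alternatives were normexp (offset 50), quantile and median scaling, the unscaled table, other filters, the slide or replicate number as a block, trended and robust variances, and each array left out. The comparison of slides was added after the data were seen. Deviations of same-numbered samples correlated at 0.42, -0.40 and 0.43, and they followed the slide. Pairs of an ADP and a control sample on the same slide correlated at 0.42 to 0.47, and pairs on different slides at -0.6 to -0.27. Whether replicate numbers pair samples by donor therefore cannot be told from these values. The number of arrays limits the precision. Protein sequences were not used here. The level of 1 marker is not reported here and was left out of its list's sum. Figures were drawn with matplotlib 3.10.9.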

Additional observations from a re-analysis of the deposited data

How the results depend on the processing

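The share of members that read lower kept its direction in every setting run but the unscaled table, where the median difference was 0.0352 and, of the members, 14 lay wholly lower and 5 were lower at an unadjusted p under 0.05. With the slide as a block, 37 members were lower and 18 higher at an unadjusted p under 0.05, against 2656 and 2105 of all features. With trended and robust variances added these were 35 and 15, against 2845 and 2269 of all features. In that fit 1940 features passed an adjusted p of 0.05, and with quantile normalization added the members' counts were 38 and 19. With the replicate block there were 21 lower and 10 higher, a median of -0.04 and 0 features past the threshold. The labels do not say whether same-numbered samples share a donor, and such samples deviated together only where they also shared a slide.

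With each array left out in turn, the members lower at an unadjusted p under 0.05 ranged from 12 to 30 and the higher from 5 to 14. Those wholly lower ranged from 47 to 75 and wholly higher from 19 to 49, where fewer arrays make a gap more likely. The median ranged from -0.06 to -0.03. Between slides, the higher count ranged from 10 to 26 and the lower from 1 to 5, and in the unscaled table they were 129 and 3. Apart from the slide block with or without trended and robust variances, the member counts of these settings stand without those of all features. Of 59 named genes, 43 kept their sign in all 20 settings. The other 16 included Zfp57, which ran from -0.09 to 1.71. Signal over background limits the dim members, whose differences shrank under normexp correction.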
